A study of Homo sapiens with 21 samples.

Results

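Depleted A673 cells that received the DAF form of EWS/FLI were compared with depleted cells that received an empty vector (iEF). The comparison takes 6 of the 21 RNA-seq libraries of the study, 3 labelled DAF and 3 labelled iEF, each numbered as replicate 1, 2 and 3. A673 is an established Ewing sarcoma cell line, and all libraries come from this single line. In both groups an shRNA against the endogenous fusion was delivered by retrovirus on day 1, followed by puromycin at 2 µg/mL, and on day 5 the cells were infected with pMSCV-hygro virus that carried either the cDNA or no insert. Both were then kept in puromycin and hygromycin B at 400 µg/mL until day 16, so that the drugs, the virus and the depletion are common to DAF and iEF and only the cDNA differs. In DAF, tyrosines in the first part of the EWS repeats are replaced by alanine while the rest of the fusion, including its FLI DNA-binding domain, is kept. The comparison asks which transcripts this tyrosine mutant still moves. Depleted cells with full-length EWS/FLI (WT-EF), depleted cells with a form that lacks the EWS domain (del22), and cells with a control shRNA against luciferase that keep the endogenous fusion (iLuc) are used below only as reference points, with 3 libraries each.

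EWS/FLI joins the low-complexity N-terminal region of EWS to the ETS-type DNA-binding domain of FLI. It is known to bind both single ETS motifs and long microsatellites of repeated GGAA, and it switches on genes next to such microsatellites while many other genes fall when it is present. The EWS region is intrinsically disordered and rich in tyrosines, which are needed for it to self-associate and to recruit chromatin regulators. Nothing in the RNA measured here shows binding.

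Library totals were 38.8, 36 and 32.9 M counts for DAF replicates 1, 2 and 3 and 44.8, 33.3 and 38.3 M for iEF. A CPM (a count scaled by the TMM-adjusted library size) stood for 32 to 42.9 counts in these libraries. Across genes, DAF replicates correlated at r = 0.9867 to 0.9903 and iEF replicates at r = 0.9634 to 0.9837, where genes are not independent replicates. The study describes its replicates as repeats of the knockdown and rescue, while the labels only number the libraries. The p-values therefore measure spread between numbered libraries of 1 cell line. That spread was estimated over all 21 libraries of the 7 groups, not from DAF and iEF alone. Among genes that fell with DAF, iEF replicate 3 was the highest of the iEF libraries for 52.8% and iEF replicate 1 for 12.6%. Calls were therefore also made without each library.

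The targeted transcript was examined first. FLI1 (chr11:128556430-128683162, plus strand, GRCh37), whose 3′ exons are carried by the fusion and by every cDNA, stood at 36.2, 39.8 and 35.1 CPM in DAF replicates 1, 2 and 3 and at 20.8, 20 and 21.1 CPM in iEF. The groups did not overlap. The log2 fold change was 0.84 ± 0.13 (SE, n = 3), with an adjusted p of 0.000365. This and every adjusted p below come from the quasi-likelihood test of edgeR, corrected over all genes by the Benjamini-Hochberg method. FLI1 averaged 49.5 CPM in del22, 24.5 CPM in WT-EF and 70.3 CPM in iLuc. DAF was above WT-EF by 0.60 (log2, adjusted p = 0.00173), and its difference from del22 of -0.40 did not pass (adjusted p = 0.246). EWSR1 (chr22:29663998-29696515, plus strand) lay at 253, 261 and 270 CPM with DAF and at 258, 233 and 273 CPM with iEF, and these overlapped (log2 fold change 0.04 ± 0.09, adjusted p = 0.89). Counts per gene do not separate native, fusion and cDNA transcripts.

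Of 5 markers of Ewing sarcoma cells, 3 rose with DAF, namely PRKCB, STEAP1 and NKX2-2, the last a call lost under some alternatives. NR0B1 did not pass, and these genes are described below. CD99, the surface antigen used in diagnosis, lies in the pseudoautosomal region shared by both sex chromosomes and had between 0 and 0.0546 CPM in all 6 libraries, so its level could not be used.

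With DAF, 1041 genes rose and 1227 fell against iEF, out of 30549 tested (adjusted p below 0.05). That is 7.42% of all genes tested, 3.41% higher and 4.02% lower, and these shares are the background for the counts of genes below. The share called was 11.3% among protein-coding genes, 3.09% below 1 CPM and 10.1% to 13.9% in the bins above it, so the lists, mostly of expressed protein-coding genes, are better read against 11.3%. At least a 2-fold change was seen for 539 of the higher and 753 of the lower genes. The median log2 fold change was 1.03 among the genes that rose, -1.24 among those that fell and -0.03 over all genes tested. Protein-coding genes made up 904 of the rises and 948 of the falls, and long non-coding RNAs 87 and 186. In 964 of the genes that rose (92.6%) and 1062 of those that fell (86.6%), the 3 DAF libraries did not overlap the 3 iEF libraries, against 2926 (9.58%) with DAF wholly higher and 3178 (10.4%) wholly lower among all genes tested. The median SD of log2 CPM among the genes that fell was 0.381 over the iEF libraries and 0.177 over the DAF libraries. Leaving out single libraries, the number of changed genes came to 1312, 1495 and 1485 without DAF replicate 1, 2 or 3 and to 1409 without iEF replicate 3, and in place of 1227 genes, 694 were lower without iEF replicate 3 and 627, 771 and 734 without DAF replicate 1, 2 or 3.

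**Figure D1:**
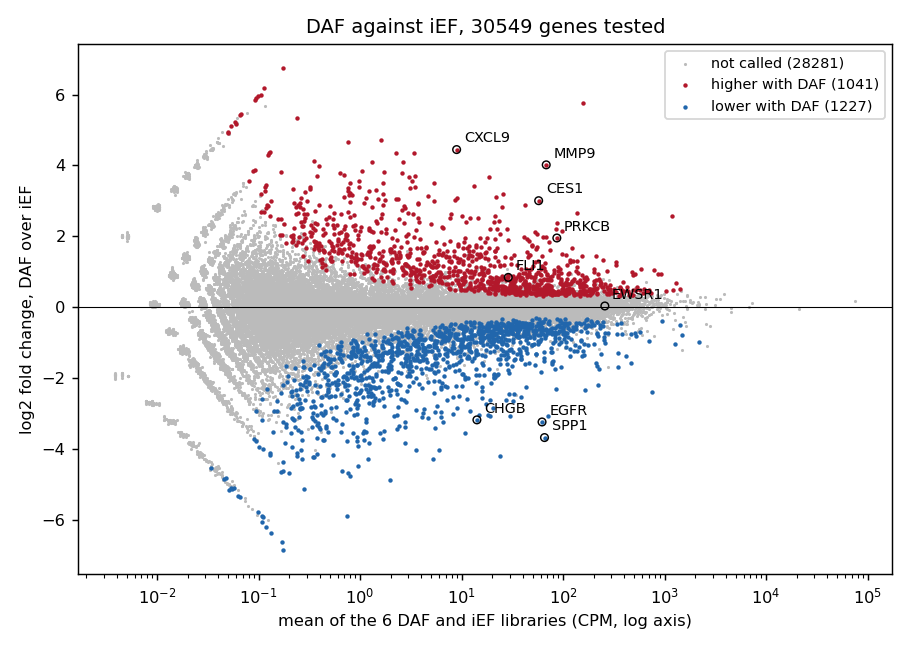
Each point is a gene, with the mean of the 6 DAF and iEF libraries on the x axis (CPM, log axis) and the log2 fold change of DAF over iEF on the y axis. Red points are the 1041 genes called higher, blue points the 1227 called lower and grey points the rest. CXCL9 and MMP9 lie near the top and SPP1, EGFR and CHGB near the bottom, while EWSR1 sits at 0.

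The 15 largest rises among genes with a symbol and at least 5 CPM had log2 fold changes from 3.01 to 4.45. CXCL9 (chr4:76922428-76928662), a chemokine that draws T cells, had 8.21, 31 and 12 CPM in DAF replicates 1, 2 and 3 and 0.14, 1.56 and 0.729 CPM in iEF, so that its log2 fold change was 4.45 ± 0.53 (adjusted p = 1.85e-05). MMP9 (chr20:44637547-44645200), a protease that degrades basement membrane collagen, had 55.5, 248 and 85.5 CPM against 6.09, 6.76 and 7.73 CPM (4.02 ± 0.54, adjusted p = 6.13e-05). DAF replicate 2 was the highest library for both, and all DAF libraries were above all iEF libraries. CXCR4 (chr2:136871919-136876747), the receptor for CXCL12, had 22.6, 70.6 and 48.1 CPM against 5.18, 2.57 and 5.46 CPM (3.21 ± 0.41, adjusted p = 3.44e-05).

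Enzymes and transporters were also among the 15. CES1 (chr16:55836763-55867249), a liver-type carboxylesterase that cleaves esters and drugs, had 94.9, 105 and 106 CPM with DAF and 8.38, 14.6 and 16 CPM with iEF, so that its log2 fold change was 3.01 ± 0.18 (adjusted p = 1.15e-08). LPL, the lipase that releases fatty acids from circulating lipoproteins, had 18.6, 31 and 23 CPM against 2.38, 2.06 and 2.08 CPM (3.43 ± 0.27, adjusted p = 9.63e-08). CYP4F22 (chr19:15619336-15663128), a fatty acid hydroxylase needed for skin ceramides, had 9.96, 20.6 and 15.9 CPM against 1.05, 2.75 and 1.97 CPM (3.03 ± 0.28, adjusted p = 9.01e-07). No DAF library overlapped an iEF library for any of them. SLC15A2, a transporter of short peptides, rose with a log2 fold change of 3.52 ± 0.34 (adjusted p = 1.55e-06).

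TNNT1 (chr19:55644066-55660574), the troponin T of slow muscle, had 20.4, 50.3 and 33.3 CPM with DAF and 2.33, 3.53 and 1.89 CPM with iEF (log2 fold change 3.68 ± 0.30, adjusted p = 2.34e-07). SV2B, a synaptic vesicle glycoprotein, had 3.47, 8.56 and 4.94 CPM against 0.747, 0.0313 and 0.378 CPM (3.68 ± 0.53, adjusted p = 0.00015). Its fold rests partly on iEF replicate 2, and ranged from 3.02 to 4.72 when each library was left out in turn. APELA (chr4:165798330-165820117), a peptide hormone that acts on the apelin receptor, had 3.74, 6.75 and 6.44 CPM against 0.373, 0.938 and 0.405 CPM (3.36 ± 0.35, adjusted p = 3.31e-06). The secreted protein gene ISM2 (chr14:77940737-77965159) had 5.98, 6.45 and 6.79 CPM against 0.467, 0.282 and 0.729 CPM (3.71 ± 0.46, adjusted p = 2.61e-05). HLA-DRA, the alpha chain of an MHC class II molecule, had 5.65, 6.18 and 7.29 CPM against 0.327, 0.97 and 0.675 CPM (3.39 ± 0.36, adjusted p = 5.09e-06). CD93, a surface glycoprotein of endothelial and myeloid cells, rose by 3.09 ± 0.40 (log2, adjusted p = 4.69e-05). The list closes with EXOC3L1, an exocyst-related gene (3.56 ± 0.31), and LINC01013, a long non-coding RNA (3.13 ± 0.35) that shares 278 exon bases with CCN2 on the opposite strand and cannot be told apart from it if strand was not counted. All 15 kept their call under every alternative that held the gene, which the rule that chose them from these data favours. SV2B, HLA-DRA, LINC01013 and CD93 are absent from the authors' adjusted table. MMP9 shares 430 exon bases with an antisense gene.

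**Figure D2:**
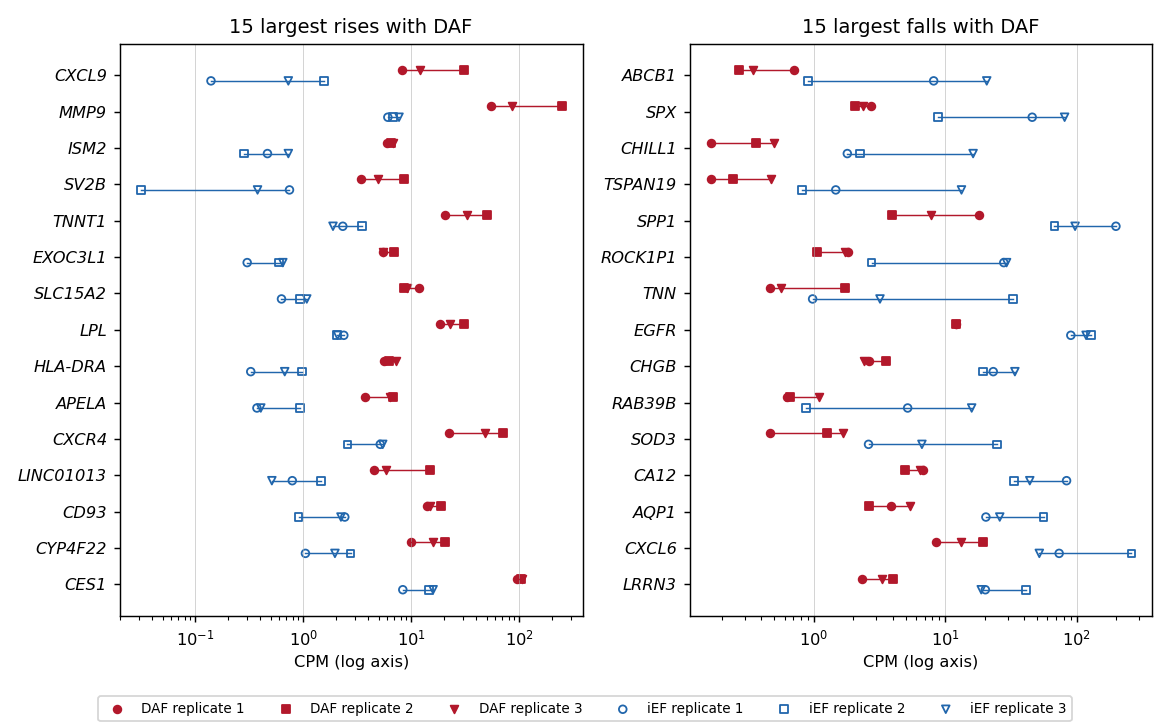
Levels in single libraries (CPM, log axis) of the 15 genes with the largest rise and the 15 with the largest fall. Filled red symbols are DAF and open blue symbols iEF, the symbol shape gives the replicate, and each line spans the 3 libraries of a group. On the right the iEF libraries of ABCB1, SPX, TSPAN19, TNN and RAB39B spread far more widely than their DAF libraries.

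The 15 largest falls differed in how evenly the iEF libraries shared the level. EGFR (chr7:55086710-55279321), the epidermal growth factor receptor, had 12.1, 12 and 12 CPM in DAF replicates 1, 2 and 3 and 90.3, 128 and 118 CPM in iEF (log2 fold change -3.23 ± 0.28, adjusted p = 3.03e-07). CHGB (chr20:5892156-5905999), a protein of secretory granules, had 2.62, 3.56 and 2.41 CPM against 23.2, 19.3 and 33.9 CPM (-3.18 ± 0.24, adjusted p = 9.63e-08). SPP1 (chr4:88896819-88904684), the secreted phosphoprotein osteopontin, had 18.1, 3.92 and 7.75 CPM against 199, 67.8 and 97.3 CPM (-3.67 ± 0.49, adjusted p = 6.93e-05). In all 3 genes the groups did not overlap, though iEF replicate 1 was well above the others for SPP1. CA12, a membrane carbonic anhydrase, had 6.77, 4.94 and 6.44 CPM against 83.8, 33.2 and 44 CPM (-3.08 ± 0.35, adjusted p = 1.13e-05). AQP1, a water channel, fell by 3.07 ± 0.35 and LRRN3, a leucine-rich repeat membrane protein, by 3.05 ± 0.40 on the log2 scale. AQP1 shares 910 exon bases with another annotated gene on its own strand, so its counts are uncertain, and SPP1, EGFR and SPX share 196, 186 and 375 exon bases with genes on the opposite strand. CXCL6, a chemokine that draws neutrophils, had 8.49, 19.3 and 13.2 CPM against 73.6, 261 and 52 CPM (-3.06 ± 0.66, adjusted p = 0.00543).

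ABCB1 (chr7:87132333-87342639), the drug efflux pump P-glycoprotein, had uneven iEF libraries, with 0.709, 0.271 and 0.344 CPM with DAF and 8.17, 0.907 and 20.7 CPM with iEF. Its log2 fold change of -4.27 ± 0.76 (adjusted p = 0.00111) was the largest fall of the set and came to -2.97 without iEF replicate 3. SPX, which encodes the peptide spexin, had 2.73, 2.05 and 2.35 CPM against 45.9, 8.79 and 81 CPM (-4.20 ± 0.75, and -3.06 without iEF replicate 3). In the same way the tetraspanin gene TSPAN19 went from -3.83 ± 0.71 to -2.05 and the long non-coding RNA CHILL1 from -4.03 ± 0.73 to -2.73 without iEF replicate 3, and the pseudogene ROCK1P1, which shares 549 exon bases with another annotated copy, from -3.54 ± 0.63 to -2.77. RAB39B, a small GTPase of vesicle transport, lost its call without that library (-3.10 ± 0.66, then -1.66). TNN, the matrix protein tenascin N, had 0.98, 32.9 and 3.19 CPM in iEF replicates 1, 2 and 3, and its fold went from -3.25 ± 0.76 to -1.47 without iEF replicate 2, where the call was lost. SOD3, an extracellular superoxide dismutase, had 2.61, 24.7 and 6.65 CPM in iEF and went from -3.08 ± 0.47 to -2.20 without iEF replicate 2.

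The named genes were also set beside the other constructs. All comparisons with iEF use the same 3 iEF libraries, and the genes were chosen for their difference from them, so that high or low iEF values enter every construct's fold alike and the counts below are descriptions only. Among the 15 named rises, 9 were also higher than iEF in WT-EF and 8 in del22, while 4 were lower than iEF in WT-EF. Those 4 were CXCL9, MMP9, HLA-DRA and CD93. For CXCL9 the log2 fold change over iEF was 4.45 in DAF, 1.88 in del22 (adjusted p = 0.0639), -4.36 in WT-EF and -4.41 in iLuc. For APELA it was 3.36 in DAF, 0.12 in del22, 4.89 in WT-EF and 5.66 in iLuc, and for CES1 3.01, 0.98, 3.55 and 4.20 in the same order. Among the 15 named falls, 15 were lower than iEF in WT-EF and 13 in del22. Over all 30549 genes tested, 269 rose and 548 fell in del22 against iEF.

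Directly against del22, 241 genes were higher with DAF (0.789% of those tested) and 56 lower (0.183%). Without the replicate number as a block these 297 calls came to 178. They came to 170 without DAF replicate 2 or del22 replicate 1, to 179 without DAF replicate 3 and to 189 and 193 without del22 replicate 2 or 3. Of the 15 named rises, 12 were higher than in del22, with ISM2 (log2 fold change 4.12 ± 0.47), SV2B (4.17 ± 0.54), MMP9 (3.73 ± 0.52) and CYP4F22 (3.40 ± 0.29) furthest apart. HLA-DRA (0.40 ± 0.31), CXCR4 (0.42 ± 0.36) and CD93 (0.69 ± 0.36) did not pass. Of the 15 named falls only SPP1 differed from del22 (-2.80 ± 0.49, adjusted p = 0.00332), and EGFR was at -0.96 ± 0.26 (adjusted p = 0.103). Against WT-EF, 4374 genes were higher with DAF (14.3%) and 3241 lower (10.6%). APELA lay below WT-EF by 1.54 (log2, adjusted p = 0.000288), CYP4F22 by 1.03 (adjusted p = 0.00311) and CES1 by 0.54 (adjusted p = 0.0215), and EGFR lay above WT-EF by 1.32 (adjusted p = 0.000945).

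**Figure D3:**
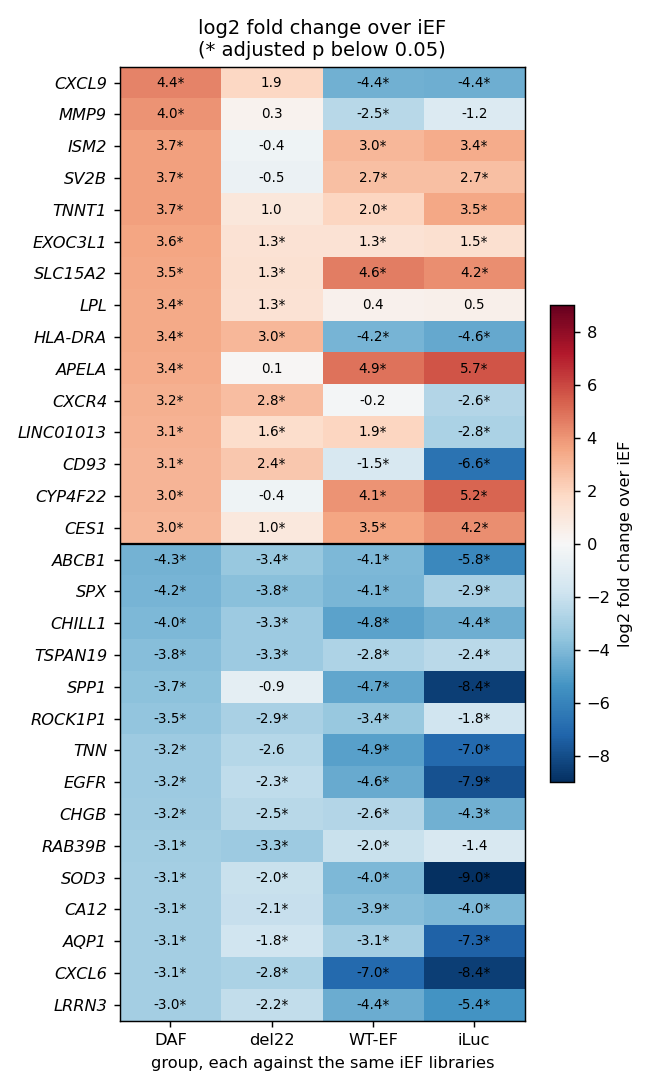
Rows are the 30 named genes and columns the DAF, del22, WT-EF and iLuc groups, each against the same 3 iEF libraries. Colour and number give the log2 fold change over iEF, and a star marks an adjusted p below 0.05. Above the line, APELA, CYP4F22, ISM2, SV2B and TNNT1 carry no star in del22 and are positive and starred in the other columns. CXCL9, MMP9, HLA-DRA and CD93 are starred in both DAF and WT-EF with opposite signs. CXCR4 also changes sign between them, but carries no star in WT-EF (-0.2). Below the line nearly all cells are blue.

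Because GGAA microsatellites are the known docking sites of EWS/FLI at activated genes, uninterrupted runs of the letters GGAA were searched on both strands of GRCh37 within 5 kb of the annotated start of each tested protein-coding gene. The longest run next to each of 7 genes discussed here, and next to OCIAD2, which fell with DAF, is printed from the GRCh37 genome. Runs of 4 or more repeats numbered 3 at NR0B1, FCGRT and CES1, 2 at GSTM4 and OCIAD2 and 1 at the others. Some flanks, those of NR0B1 and GSTM4 among them, hold further GGAA copies, so a run can be shorter than its whole microsatellite. Each printed run is read along the strand that holds GGAA, with 20 flanking bases on both sides in lower case and the uninterrupted run in capitals.
NR0B1: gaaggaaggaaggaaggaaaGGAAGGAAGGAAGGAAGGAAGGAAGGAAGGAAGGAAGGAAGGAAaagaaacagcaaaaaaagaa
GSTM4: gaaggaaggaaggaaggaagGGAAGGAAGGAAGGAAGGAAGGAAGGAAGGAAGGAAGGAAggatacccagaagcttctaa
FCGRT: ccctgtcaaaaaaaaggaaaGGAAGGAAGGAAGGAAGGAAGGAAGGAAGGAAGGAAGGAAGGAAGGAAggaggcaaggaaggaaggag
ISM2: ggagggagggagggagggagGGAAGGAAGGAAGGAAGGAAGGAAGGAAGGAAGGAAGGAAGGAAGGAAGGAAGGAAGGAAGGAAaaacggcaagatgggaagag
APELA: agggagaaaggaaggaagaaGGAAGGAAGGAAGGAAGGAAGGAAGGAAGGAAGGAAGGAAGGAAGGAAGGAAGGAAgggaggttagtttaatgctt
CYP4F22: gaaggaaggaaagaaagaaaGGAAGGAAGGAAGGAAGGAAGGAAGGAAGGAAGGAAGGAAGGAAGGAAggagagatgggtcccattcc
CES1: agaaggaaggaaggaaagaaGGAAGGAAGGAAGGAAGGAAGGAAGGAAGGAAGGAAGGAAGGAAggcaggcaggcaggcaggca
OCIAD2: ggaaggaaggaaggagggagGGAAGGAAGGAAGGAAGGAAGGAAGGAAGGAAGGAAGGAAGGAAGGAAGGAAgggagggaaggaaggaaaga

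The printed stretch at NR0B1 is chrX:30328855-30328938 (minus strand, 11 repeats, 1389 bases before the gene start), that at GSTM4 chr1:110196871-110196950 (plus, 10 repeats, 1811 bases before), that at APELA chr4:165794478-165794573 (plus, 14 repeats, 3805 bases before) and that at OCIAD2 chr4:48912325-48912416 (minus, 13 repeats, 3416 bases before). None of these 4 lies inside an annotated gene. The other 4 are intronic in their own gene, at FCGRT chr19:50014744-50014831 (plus, 12 repeats, 4714 bases after the gene start), at ISM2 chr14:77964093-77964196 (plus, 16 repeats, 1015 bases after), at CYP4F22 chr19:15620649-15620736 (minus, 12 repeats, 1356 bases after) and at CES1 chr16:55864669-55864752 (plus, 11 repeats, 2539 bases after). Run lengths are those of the reference genome, not of A673, and a run is not a binding site.

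A run of 10 or more repeats lay near 147 of 16404 tested protein-coding genes (0.896%). It lay near 30 of the 904 that rose with DAF (3.32%), 5 of the 948 that fell (0.527%) and 112 of the 14552 not called (0.77%). Among the 176 genes higher with DAF than in both iEF and del22 the number was 15 (8.52%), and among the 726 higher than iEF but not called against del22 it was 14 (1.93%). For comparison, del22 itself had such a run near 6 of 236 genes higher than iEF (2.54%) and WT-EF near 54 of 2520 (2.14%). These shares are descriptions with no test, and single runs can serve more than one gene, as the run shared by LIPI and RBM11 does. The 5 that fell were ACKR3, BEST3, CEACAM6, ITGAM and OCIAD2, of which OCIAD2 had 20.7, 27.2 and 28.5 CPM with DAF and 41.8, 44.3 and 51.2 CPM with iEF (log2 fold change -0.85, adjusted p = 0.000708).

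**Figure D4:**
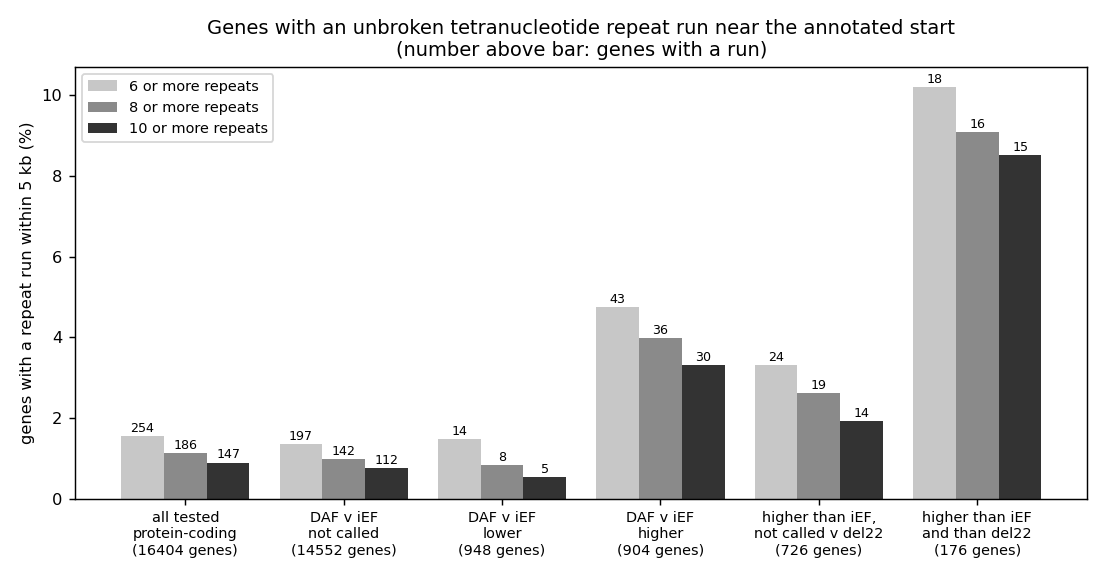
Bars give the percentage of tested protein-coding genes with an uninterrupted repeat run within 5 kb of their annotated start, for runs of at least 6, 8 or 10 repeats, and the number above each bar counts the genes. For 10 or more repeats the share is 0.896% over all genes, 3.32% among genes higher with DAF than iEF and 8.52% among genes higher than both iEF and del22. No error is drawn, since genes are not replicates.

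Other genes with such a run were CAV1, which builds the membrane pits called caveolae and had 1010, 1210 and 1140 CPM with DAF against 626, 570 and 560 CPM with iEF (log2 fold change 0.94, adjusted p = 0.000102), and PHOSPHO1, a phosphatase of bone mineralization, with 20.7, 19.5 and 21.2 CPM against 3.06, 4.72 and 2.97 CPM (2.53, adjusted p = 6.01e-08). Neither gene's groups overlapped. The adhesion receptor gene ADGRG7 had 3.66, 5.18 and 3.28 CPM against 0.327, 0.501 and 0.621 CPM (3.04, adjusted p = 1.28e-06). Against del22, PHOSPHO1 (2.36, adjusted p = 5.9e-07) and ADGRG7 (1.90, adjusted p = 0.000311) were higher with DAF. CAV1 did not pass against del22 (0.475, adjusted p = 0.104). NR0B1 (chrX), a nuclear receptor that is a classic microsatellite target of the fusion, had 19.9, 37.9 and 24.1 CPM with DAF and 10.9, 23.2 and 14.9 CPM with iEF. These ranges overlapped and the change did not pass (0.74 ± 0.27, adjusted p = 0.104). NR0B1 was above del22 (1.77, adjusted p = 0.00112), while del22 was itself below iEF (-1.03, adjusted p = 0.0473).

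Of 18 reported activated targets of EWS/FLI, 9 rose with DAF and none fell, with a median log2 fold change of 0.80 beside -0.03 over all genes. This list was put together with results of these data known. FCGRT, which encodes the neonatal Fc receptor, had 32.4, 37.5 and 39.2 CPM with DAF and 6.6, 9.98 and 7.19 CPM with iEF (2.21 ± 0.21, adjusted p = 2.34e-07). PRKCB, a protein kinase C, had 128, 164 and 123 CPM against 42.5, 28.3 and 35.2 CPM (1.96 ± 0.19, adjusted p = 1.55e-06). LOXHD1, known from hair cells of the ear, had 3.25, 6.54 and 5.5 CPM against 0.677, 0.719 and 0.919 CPM (2.65, adjusted p = 2.62e-05). STEAP1, a membrane protein, rose by 0.80 ± 0.16 (adjusted p = 0.00359). IL1RAP, a co-receptor for interleukin 1, rose by 0.81 (adjusted p = 0.000423) and KCNN1, a calcium-activated potassium channel, by 1.31 (adjusted p = 0.00177). The rises of NKX2-2 (1.00 ± 0.27, adjusted p = 0.0265), GSTM4 (0.95, adjusted p = 0.0196) and BCL11B (0.71, adjusted p = 0.0374) were lost under some alternatives. Among those that did not pass were SOX2 (0.30), GLI1 (0.83), CCND1 (0.02) and EZH2 (-0.01). Against WT-EF, 15 of the 18 were lower with DAF and none higher, and against del22, 8 were higher.

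Of 10 reported repressed targets, 2 rose with DAF and 1 fell (median 0.24). DKK1, a secreted Wnt inhibitor, had 144, 52.4 and 61.2 CPM against 35, 25.2 and 55.3 CPM (1.15, adjusted p = 0.00951), and THBS1, the matrix protein thrombospondin, rose by 0.65 (adjusted p = 0.00338). LOX, which cross-links collagen, had 213, 179 and 125 CPM with DAF and 319, 299 and 422 CPM with iEF (-1.01, adjusted p = 0.0183). All 3 calls were lost under at least 1 alternative. IGFBP3, a growth factor binding protein, had 5520, 4510 and 3570 CPM against 3770, 5870 and 3970 CPM (-0.03, adjusted p = 0.976), while in WT-EF it was 3.73 lower than iEF on the log2 scale. Against WT-EF 8 of the 10 were higher with DAF, and against del22 none differed. With del22 itself, 2 of the 10 rose against iEF and none fell.

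Of 26 tested ETS factors, the family to which FLI1 belongs, 3 rose, FLI1 included, and 6 fell. EHF, an epithelial ETS factor, had 0.791, 3.32 and 1.5 CPM with DAF and 15.4, 9.67 and 18.2 CPM with iEF (-3.00, adjusted p = 0.000263). ERG, the closest relative of FLI1, had 0.437, 0.271 and 0.0313 CPM against 1.54, 1.16 and 2.05 CPM (-2.68, adjusted p = 0.000771), and ETV4, a target of ERK signalling, 1.96, 1.81 and 2.97 CPM against 7.82, 5.29 and 5.3 CPM (-1.47, adjusted p = 0.000253). The groups were apart for each of them. ELF3 (-4.88), ETV1 (-0.78) and ELK3 (-0.57) also fell. ETV6 rose by 0.45 (adjusted p = 0.0188), a call lost under some alternatives, and FEV was called higher but was listed at 0.164, 0.151 and 0.219 CPM with DAF and at 0.0233, 0 and 0 CPM with iEF. In del22, 1 of the 26 rose and 5 fell against the same iEF libraries. Directly against del22, DAF was higher for none of them and lower for 1.

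Markers of other cell types were examined as whole lists. Of 28 tested endothelial genes, 8 rose and none fell (median 0.44), and their summed level was 301 to 318 CPM with DAF and 155 to 209 CPM with iEF. Besides CXCR4 and CD93, the VEGF receptor FLT1 had 68.7, 67.7 and 51.3 CPM against 33.2, 29.8 and 40.4 CPM (0.86, adjusted p = 0.00271), the sialomucin EMCN 21.1, 5.49 and 14.3 CPM against 2.01, 1.85 and 2.81 CPM (2.63, adjusted p = 0.00063) and CD34 3, 10.2 and 6.35 CPM against 0.49, 1.94 and 0.243 CPM (2.90, adjusted p = 0.00199). FLT4 and ENG also rose, and so did NOS3, whose call was lost under some alternatives. In del22, 4 of the 28 rose against iEF and none fell. Directly against del22, DAF was higher for 2 of the 28 and lower for none. Among defining endothelial markers, CDH5 averaged 0.711 CPM with DAF and 0.199 CPM with iEF, VWF 0.213 and 0.483 CPM, and CLEC14A 0.00909 and 0.00901 CPM, and none of these passed. Of 9 tested blood cell markers 1 rose and 2 fell, with summed levels of 5.98 to 6.51 CPM with DAF and 6.13 to 28.7 CPM with iEF. The top of that iEF range came from ITGAM, an integrin of myeloid cells, at 2.57, 2.1 and 25 CPM in iEF, and its call was lost without iEF replicate 3. The pan-leukocyte marker PTPRC averaged 0.587 CPM with DAF and 0.683 CPM with iEF. Of 11 epithelial markers 2 fell and none rose, with EPCAM at 0.139 and 0.0765 CPM and CDH1 at 0.0309 and 0.0299 CPM. Their summed level was nevertheless higher with DAF, at 75.7 to 94.1 CPM against 56.9 to 62 CPM with iEF. In bulk RNA, fewer cells of a type and less RNA per cell cannot be told apart, and the part of other cells in these levels was not tested.

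**Figure D5:**
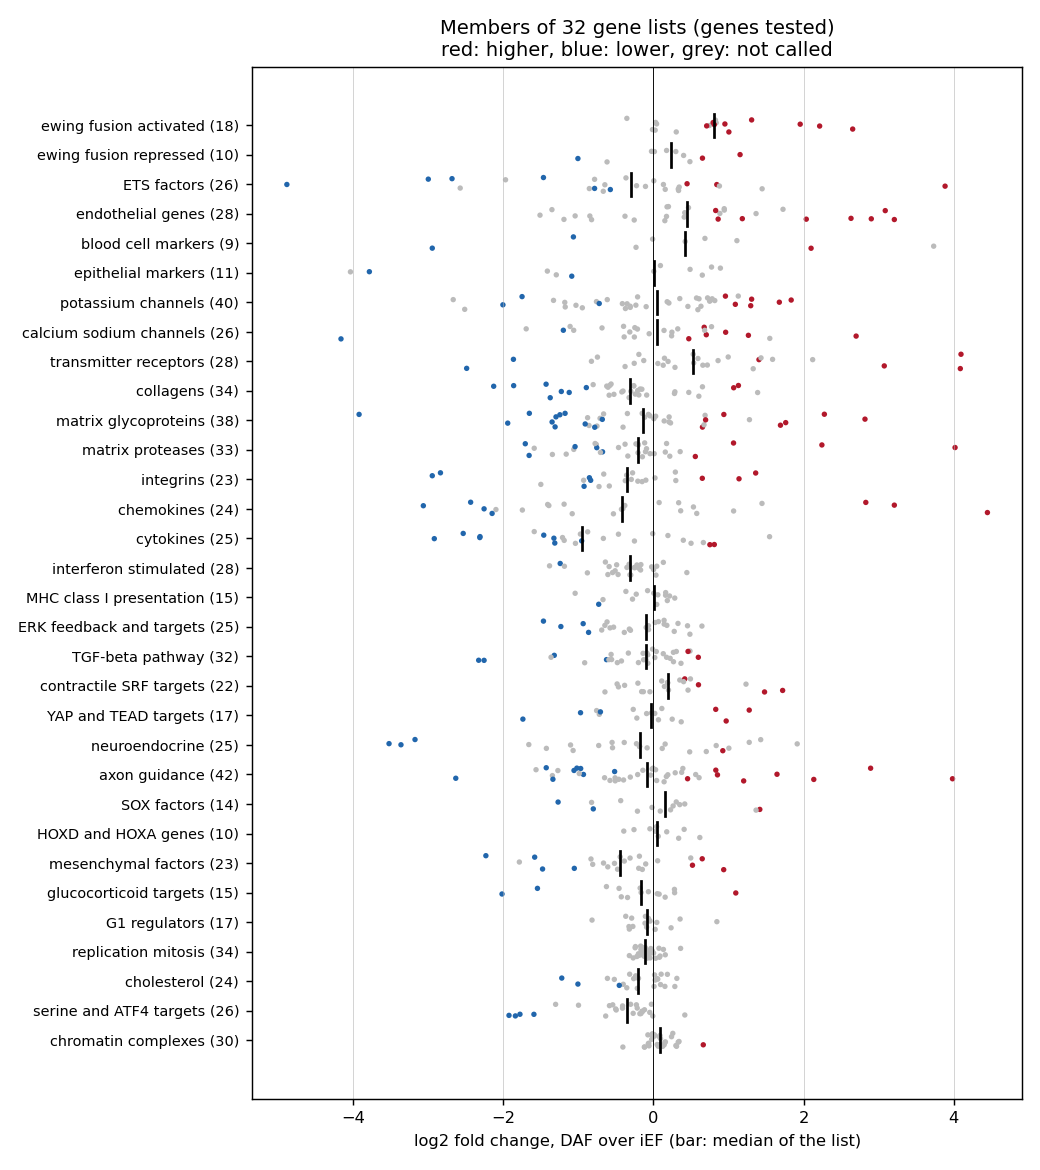
Each point is a tested member of one of 32 gene lists, placed by its log2 fold change of DAF over iEF on the x axis. Red points were called higher, blue points lower and grey points not called, and the black bar is the median of the list. The activated fusion targets have a median of 0.80 and the cytokines of -0.96, while HOX and replication genes show no coloured points.

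Genes of excitable cells moved in both directions. Of 40 potassium channel genes 6 rose and 3 fell, of 26 calcium and sodium channel genes 6 rose and 2 fell, and of 28 transmitter receptor genes 4 rose and 2 fell (median 0.53). KCNE4, a modulator of potassium channels, had 212, 170 and 178 CPM with DAF and 56, 81.2 and 42.2 CPM with iEF (1.68, adjusted p = 6.1e-06). GRIK2, a kainate-type glutamate receptor, had 51.2, 81.1 and 63.3 CPM against 24.6, 23.2 and 25 CPM (1.41, adjusted p = 1.61e-06), and GABRA4, a GABA receptor subunit, 0.9, 4.25 and 2.38 CPM against 0.117, 0.0938 and 0.162 CPM (4.10, adjusted p = 3.36e-05). The glutamate receptor GRIA2 rose by 4.09 and the calcium channel subunit CACNB2, which has a GGAA run of 11 repeats nearby, by 1.26 (adjusted p = 0.000116). CACNB2 did not pass against del22 (0.52, adjusted p = 0.252). In the other direction KCNMA1, the large-conductance calcium-activated channel, had 41, 38.1 and 34.6 CPM against 119, 108 and 159 CPM (-1.75, adjusted p = 5.72e-05).

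Matrix genes moved in both directions. Of 34 collagen genes 2 rose and 7 fell, of 38 other matrix proteins 7 rose and 11 fell, and of 33 matrix proteases and inhibitors 4 rose and 5 fell. The balance depended on single libraries. Collagens came to 3 rises and 3 falls without DAF replicate 2 and to 4 and 4 without iEF replicate 2, with 4 falls without DAF replicate 1 or iEF replicate 3. Other matrix proteins came to 7 and 7 without DAF replicate 2 and to 9 and 9 without iEF replicate 2, with 7 falls without iEF replicate 3, and proteases to 4 and 2 without DAF replicate 1 and 3 and 3 without iEF replicate 3. In del22, 2 collagens rose and 4 fell against iEF, 4 other matrix proteins rose and 5 fell, and 1 protease rose and 2 fell. Directly against del22, DAF was higher for 1 collagen, 2 other matrix proteins and 2 proteases. It was lower for 2 collagens, 0 other matrix proteins and 1 protease. COL9A3, a cartilage collagen, had 5.05, 4.1 and 5.32 CPM with DAF and 14.6, 38.2 and 15.9 CPM with iEF (-2.13, adjusted p = 5.25e-05), and COL15A1, of basement membranes, 2.37, 1.72 and 2.91 CPM against 3.97, 13.2 and 8.78 CPM (-1.86, adjusted p = 0.00219). LUM, the proteoglycan lumican, fell by 3.92 (adjusted p = 3.84e-05) and NID1, a basement membrane linker, by 1.35 (adjusted p = 0.000253). COL5A2, a fibrillar collagen, rose by 1.07 (adjusted p = 0.00459), with 773, 829 and 759 CPM against 264, 655 and 275 CPM. SPARC, a secreted binder of collagen, had 1220, 1160 and 1200 CPM against 590, 799 and 512 CPM (0.94, adjusted p = 0.000199), and BGN, the proteoglycan biglycan, 67.3, 75.1 and 108 CPM against 19.2, 43.5 and 18.9 CPM (1.69, adjusted p = 0.000226). NPNT, an integrin ligand, rose by 2.82 (adjusted p = 2.23e-05). iEF replicate 2 was the highest iEF library for COL9A3, COL15A1, COL5A2, SPARC and BGN alike. The protease inhibitor SERPINE2 had 973, 709 and 777 CPM against 1540, 2130 and 1450 CPM (-1.04, adjusted p = 0.000213). Of 23 integrin genes 3 rose and 5 fell, among them ITGB3, a vitronectin receptor subunit (1.36, adjusted p = 0.00146), and ITGB4, which binds laminin in epithelia (-2.84, adjusted p = 0.000266). The 5 integrin falls came to 2 without DAF replicate 2 and to 3 without iEF replicate 3. In del22, 3 integrins rose and 2 fell against iEF, and directly against del22 DAF was higher for none and lower for 1.

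Of 25 cytokine and receptor genes 8 fell and 2 rose, with a median of -0.96. The 8 falls came to 4 without DAF replicate 1 and to 5 without iEF replicate 2 or 3. Directly against del22, 2 of the 25 were higher with DAF and none lower, where 0.789% and 0.183% of all genes tested were. In del22 itself, 8 of the 25 fell against iEF and 1 rose, with a median of -1.11. IL6 had 1.26, 6.09 and 1.88 CPM with DAF and 13.6, 23.4 and 26.6 CPM with iEF (-2.92, adjusted p = 0.000213), and IL11, a cytokine of the same family, 31.4, 33.8 and 17.9 CPM against 108, 113 and 205 CPM (-2.31, adjusted p = 3.44e-05). The groups did not overlap for either, and IL6 shares 428 exon bases with an antisense gene. IL1R1, the interleukin 1 receptor, had 11.3, 13.2 and 12.8 CPM against 26.8, 29.7 and 49.1 CPM (-1.46, adjusted p = 0.000159), and CSF1, the growth factor of macrophages, fell by 0.96 (adjusted p = 0.011), a call lost under some alternatives. LIFR, a receptor for LIF, rose by 0.75 (adjusted p = 0.00441), with 315, 215 and 237 CPM against 129, 174 and 149 CPM. Of the 10 genes called, 7 are absent from the authors' adjusted table and could not be compared there, IL6, IL11 and IL1R1 among them. Of 24 tested chemokine genes 3 rose and 4 fell. CXCL3 and CCL20 fell with CXCL6, by 2.15 and 2.44, calls lost without DAF replicate 1, DAF replicate 3 or iEF replicate 3, and CCL7, a monocyte chemokine, rose by 2.83 (adjusted p = 0.00338). CXCL8 (-1.08), CXCL10 (1.45) and CCL2 (0.53) did not pass. Among 28 interferon-stimulated genes 1 fell, OASL (-1.24, adjusted p = 0.0227), a call lost under some alternatives. Against WT-EF, in contrast, 26 of the 28 were higher with DAF.

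Among signalling lists, 2 of 32 genes of the TGF-beta pathway rose and 4 fell. INHBA, the activin A subunit, had 43.2, 75.7 and 42 CPM with DAF and 172, 334 and 318 CPM with iEF (-2.33, adjusted p = 1.1e-05), and LTBP1, which holds latent TGF-beta in the matrix, 17.9, 13.1 and 13.9 CPM against 64.4, 73.7 and 75 CPM (-2.26, adjusted p = 2.43e-07). Both groups were far apart for both genes. TGFBR1 and TGFBR3 fell by 0.62 and 1.32, and the ligand TGFB1 rose by 0.60 (adjusted p = 0.00433). Of 25 feedback inhibitors and immediate targets of ERK signalling none rose and 4 fell, FOSL1, a subunit of the AP-1 factor, among them (-0.94, adjusted p = 0.000783). Of 22 contractile SRF targets 4 rose and none fell. In del22, 3 of the 22 rose against iEF and none fell, and none differed between DAF and del22. TAGLN and ACTA2 had their highest iEF value in replicate 2, at 44.1, 82.5 and 42.1 CPM and 13.4, 51.7 and 10.9 CPM, against 136, 139 and 203 CPM and 59.5, 76.6 and 82.5 CPM with DAF (1.48 and 1.72, adjusted p = 0.000581 and 0.00219). Both overlap annotated genes on either strand over 401 to 2498 exon bases. Of 17 YAP and TEAD targets 3 rose and 3 fell.

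Axon guidance genes were split, with 8 rises and 8 falls among 42. ROBO2, a receptor for SLIT ligands, had 95.5, 63.5 and 65.9 CPM with DAF and 12.3, 6.98 and 10.8 CPM with iEF (2.89, adjusted p = 6.01e-08), and SEMA3D, a secreted guidance cue, 28.8, 24 and 26.3 CPM against 11.3, 11.6 and 11.5 CPM (1.20, adjusted p = 0.000111). NRP2, a co-receptor for semaphorins, had 5.51, 12.9 and 7.35 CPM against 32, 105 and 31.6 CPM (-2.63, adjusted p = 7.05e-05). The groups of these 3 genes did not overlap. Of 25 neuroendocrine genes 1 rose and 3 fell, CHGB among the latter. VIP and TAC1 fell too, with iEF at 1.87, 0.0938 and 4.54 CPM and at 3.15, 0.469 and 11.7 CPM, so that replicate 3 was the highest for both and TAC1 lost its call without it, and also without DAF replicate 1 or 3.

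Of 14 SOX genes, SOX6 rose, with 34.7, 46.2 and 37 CPM against 15.4, 16.5 and 12.2 CPM (1.42, adjusted p = 3.99e-06), and SOX5 (-1.27, adjusted p = 0.00256) and SOX11 (-0.80, adjusted p = 0.0107) fell, the last a call lost without DAF replicate 1, DAF replicate 3 or iEF replicate 3. Of 23 mesenchymal factors 3 rose and 4 fell. RUNX1, a regulator of blood and bone development, had 17.8, 18.1 and 16 CPM with DAF and 40.1, 38.3 and 68.5 CPM with iEF (-1.48, adjusted p = 0.000628), and SNAI1, a repressor of epithelial genes, rose by 0.94 (adjusted p = 0.00297). Of 15 glucocorticoid receptor targets 1 rose and 2 fell.

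None of 10 tested HOXD and HOXA genes, 17 regulators of G1 and 34 genes of replication and mitosis was called in either direction, with medians of 0.05, -0.09 and -0.11, and a p that misses the threshold does not show that they were equal. HOXD13 had 16.6, 18.2 and 14.8 CPM with DAF and 16.2, 18.4 and 13.7 CPM with iEF. Of 30 subunits of the BAF, NuRD and polycomb complexes 1 rose, CHD3 of NuRD, with 162, 201 and 175 CPM against 124, 122 and 93.3 CPM (0.66, adjusted p = 0.00179). Among 24 genes of cholesterol synthesis and uptake 3 fell, each lost under some alternatives, and among 26 genes of serine synthesis and the ATF4 response 4 fell. The arginine transporter SLC7A2 kept its fall under every alternative that held it, with 6.3, 9.86 and 8.13 CPM against 13, 55.8 and 31.1 CPM (-1.92, adjusted p = 6.38e-05).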

How the data were processed

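RNA-seq libraries of A673 cells were taken as 7 groups of 3 from the sample labels, and 6 of the 21 libraries (DAF and iEF) form the comparison. The members and gene lists were chosen with earlier results of these data known. The authors mapped paired-end reads on hg19 using STAR (2.5.1b in the submitters' processing notes), ran htseq-count with its intersection-strict option and deposited unnormalized counts per Ensembl gene. Which annotation release and strand option were used is not given in the sources used here, so genes whose exons overlap another gene are uncertain. The authors also deposited ComBat-adjusted counts, a signal not scaled for library size, used here in 1 alternative. It lacks 342 of the 2268 genes called, and a gene it lacks counts as neither kept nor lost there. The authors' table of log2 fold changes, standard errors and adjusted p-values from DESeq2 was not used.

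Of 57820 genes, the 30549 that averaged 1 count or more over the libraries were tested in R 4.3.3 with edgeR 4.0.16. Libraries were TMM-normalized and a quasi-likelihood model with group and replicate number was fitted to all 21 libraries, with columns named mut9d read as DAF-mut9. Genes were called at a Benjamini-Hochberg adjusted p below 0.05. The ± after a fold change is its standard error, derived from the fold and the F statistic of this fit to all libraries. Replicate number was kept as a block because the study adjusted each replicate set as a batch. Deviations of same-numbered DAF and iEF libraries correlated at r = 0.417, 0.191 and -0.111. Named genes were FLI1, EWSR1, the 15 largest rises and 15 largest falls with a symbol, at least 5 CPM in a group mean and the same direction in all 3 replicates, and list members. Alternatives used limma 3.58.1, DESeq2 1.42.0, other filters, RLE normalization, fewer groups and each library left out. Scripts were tested on simulated data. Gene places are from GENCODE 44 lifted to GRCh37, which held 29538 of the tested genes, and starts for the GGAA search are outermost gene bounds there. The older symbol DDX58 was matched to RIGI through RefSeq synonyms.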

Additional observations from a re-analysis of the deposited data

How the results depend on the processing

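For DAF against iEF, the 2268 changed genes came to 1799 with no replicate block, 2797 with DESeq2, 3289 with no low-count filter, 2211 from the authors' adjusted values with limma (pseudocount 0.5), 1510 (641 higher) with only the compared groups in the fit and 1292 (539 higher, 753 lower) with at least a 2-fold change required. Lower genes came to 1975 with no low-count filter. When each library was left out the total ranged from 1312 to 2136, the higher genes from 685 to 901 and the lower genes from 627 to 1235. For DAF against del22 the 297 genes came to 178 with no replicate block, 475 with DESeq2, 906 with no low-count filter and 682 with only the compared groups, and to between 170 and 224 when a library was left out. For DAF against WT-EF a 2-fold change left 3919 of 7615. The cause of these shifts was not tested, beyond the fewer libraries or genes that some settings hold. Of 436 values of the named genes against iEF under these settings, 433 kept direction and stayed on the same side of the threshold and 3 lost the call, TNN without DAF replicate 2 and without iEF replicate 2 and RAB39B without iEF replicate 3. None changed direction. Among list members called, those of activated fusion targets came to 6 to 10 rises and the 8 cytokine falls to 15 with no low-count filter, 4 to 7 when a library was left out and 0 in the adjusted table, which lacks 7 of the genes. That table also lacks 12 of the 32 named genes. Dropping the replicate block ended the calls of NKX2-2, BCL11B, DKK1, ETV6, NOS3 and ACKR3 among genes named above, and the 15 rises and 15 falls kept theirs. The share of genes higher with DAF that have a GGAA run of 10 or more repeats was 2.7% to 4.31% over the other fits, against 0.896% of all genes, and settings for the run itself, chosen after seeing the data, gave 3.98% against 1.13% for 8 or more repeats, 1.99% against 0.579% for 12 or more and 1.11% against 0.262% within 2000 bases. Same-numbered DAF and iEF libraries did not all deviate together (r = 0.417, 0.191 and -0.111), though over all groups the median r was 0.158 for 63 same-number pairs and -0.091 for 126 others, so the pairing is not settled for DAF and iEF.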

Other observations

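MHC class II genes, which present antigen to helper T cells and were grouped only after their values had been seen, were higher with DAF for 10 of 12 genes tested, with a median log2 fold change of 2.08 and summed levels of 24.1 to 30.9 CPM with DAF and 4.5 to 9.38 CPM with iEF. CIITA, the master regulator of the class, had 5.29, 3.16 and 4.6 CPM in DAF replicates 1, 2 and 3 and 1.89, 1.16 and 1.7 CPM in iEF (1.45 ± 0.25, adjusted p = 0.000862 by edgeR's quasi-likelihood test). HLA-DMA, which helps load the peptides, had 2.43, 2.98 and 3.38 CPM against 0.467, 1.16 and 0.378 CPM (2.22 ± 0.33, adjusted p = 0.00023). HLA-DRB1 rose by 3.04 and HLA-DRB5 by 4.66, although near-identical HLA genes can share reads. HLA-DPB1 (0.38) and HLA-DQA1 (1.55) did not pass. Against del22 none of the 12 differed, where 0.789% of all genes tested were called higher and 0.183% lower. With del22 itself, 8 of the 12 rose against iEF and none fell (median 1.95). Against WT-EF 9 were higher with DAF.

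Several highly expressed genes outside the lists and the naming rule also moved, and are given because their values stood out. IGFBP5, an insulin-like growth factor binding protein, had 2330, 1850 and 1930 CPM with DAF and 424, 278 and 315 CPM with iEF (2.59 ± 0.24, adjusted p = 1.21e-06). TNFAIP6, a secreted binder of hyaluronan, had 270, 265 and 177 CPM against 26.9, 49.6 and 36.3 CPM (2.65 ± 0.19, adjusted p = 6.01e-08). BIRC3, an inhibitor of apoptosis induced by NF-kB, had 139, 415 and 175 CPM against 530, 1390 and 1890 CPM (-2.40 ± 0.57, adjusted p = 0.0118). RN7SL5P, a pseudogene of the signal recognition particle RNA, was called higher (5.76 ± 1.41, adjusted p = 0.0141) with 9.52, 924 and 2.81 CPM with DAF against 4.5, 2.88 and 3.38 CPM, so that 1 library holds nearly all of its reads and DAF replicate 3 lies below every iEF library. A pair of gene IDs for which no symbol was found rose with tight libraries. ENSG00000204466 had 47.6, 30.1 and 40.9 CPM with DAF and 4.71, 4.97 and 4.13 CPM with iEF (3.12 ± 0.25, adjusted p = 1.57e-07), and ENSG00000130201 had 7.23, 6.24 and 5.94 CPM against 0.373, 0.344 and 0.216 CPM (4.36 ± 0.32, adjusted p = 6.01e-08).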
